A study of Mus musculus with 16 samples.

Results

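The 9 genes described here belong to MHC class I antigen presentation and its neighbours: the class I heavy chains H2-K1 and H2-D1, their light chain B2m, the peptide transporter subunits Tap1 and Tap2, the loading factor Tapbp, the immunoproteasome subunits Psmb8 and Psmb9, and the class II chaperone Cd74. They were chosen by name, as every probe set that the array annotation pairs with one of these symbols alone, which gave 9 genes of 18193 on the array and 26 probe sets of 45101. The rule itself reads no measured value, but the genes were picked with earlier results of these data known. APLP2 has been reported to bind MHC class I molecules, and the series compares mice with and without APLP2 and its relative APP, the amyloid precursor protein.

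RNA came from the hippocampus of male mice aged 2 months, with the strain written as C56/BL6 in the labels, and was measured on 16 Affymetrix arrays, 4 for each genotype. N_dCKO mice carried the genotype APP-/-; APLP2-/- and are called a neuronal double conditional knockout in the series title. APLP2_KO mice were APLP2-/-, APP_KO mice were APP-/-, and WT mice were wild type. The sources used here give neither the driver of the conditional deletion nor the cells that carry it. The labels number the samples of a group 1 to 4 and do not call them separate animals. The p-values therefore speak of the spread among samples, which could be technical.

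MHC class I molecules show peptides from inside the cell to T cells and natural killer cells. Proteasomes cut the peptides, with Psmb8 and Psmb9 replacing standard catalytic subunits in the immunoproteasome. The Tap1 and Tap2 transporter carries the peptides into the endoplasmic reticulum, and Tapbp (tapasin) holds the empty class I molecule beside it. In the brain, class I genes are expressed by endothelial cells and microglia and also by neurons, where they have been linked to synapse remodelling, and interferons are their best known inducers.

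The promoters of both heavy chains and of B2m are printed because these genes are classically induced together. Each sequence is the 250 bases before the start listed by RefSeq on build GRCm38.p6, read on the gene's own strand. B2m is at chr2:122147437-122147686 on the + strand, H2-D1 at chr17:35262844-35263093 on the + strand, and H2-K1 at chr17:34000348-34000597 on the - strand. Capitals mark matches on either strand to GGGNNTTCC (the core of a kappaB site), AANNGAAA (the core of an interferon regulatory factor site), TGACG (a CRE core) and CCAAT.
B2m: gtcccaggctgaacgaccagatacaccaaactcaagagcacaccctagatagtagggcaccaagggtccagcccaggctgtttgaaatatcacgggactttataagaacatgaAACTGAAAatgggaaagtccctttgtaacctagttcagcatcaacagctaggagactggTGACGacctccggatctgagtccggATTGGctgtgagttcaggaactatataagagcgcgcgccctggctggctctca
H2-D1: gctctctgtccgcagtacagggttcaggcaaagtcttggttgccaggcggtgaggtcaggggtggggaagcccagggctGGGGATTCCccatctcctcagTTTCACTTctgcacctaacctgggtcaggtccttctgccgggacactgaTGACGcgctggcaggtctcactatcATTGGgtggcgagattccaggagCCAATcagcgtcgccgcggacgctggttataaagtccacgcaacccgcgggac
H2-K1: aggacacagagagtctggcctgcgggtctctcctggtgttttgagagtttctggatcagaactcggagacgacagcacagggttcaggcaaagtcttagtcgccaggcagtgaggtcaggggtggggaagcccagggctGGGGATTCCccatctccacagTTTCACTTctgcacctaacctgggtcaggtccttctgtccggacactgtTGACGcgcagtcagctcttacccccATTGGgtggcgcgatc
The kappaB letters were in H2-K1 and H2-D1, 2 of the 7 members whose promoter was read here, against 4.98% of 32851 mouse promoters. H2-K1 and H2-D1 shared an identical run of 47 bases that holds these letters. The AANNGAAA core was found in 3 of the 7, which were H2-K1, H2-D1 and B2m, against 21.3% of all promoters. TGACG was found in 5 of the 7, against 17.8%, and CCAAT in 6 of the 7, against 33.8%. The promoters of Tap1 (chr17:34187306-34187555, + strand) and Psmb9 (chr17:34187331-34187580, - strand) overlap. Their TGACG match is the same site read on opposite strands, as is their CCAAT match, so each site was counted for both genes. In B2m the 4 motifs gave 3 matches, with AACTGAAA starting 137 bases, TGACG 78 bases and ATTGG 53 bases before the start. A match describes these letters only.

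The targeted genes followed the labels: App signal was at 11.8% of WT in N_dCKO and 13.6% in APP_KO, and Aplp2 signal at 16.7% of WT in N_dCKO and 19.4% in APLP2_KO. Markers of neurons (10 of 10) and of hippocampal cells (8 of 8) all passed the signal filter described below. None of 7 T and natural killer cell markers did (signals 1.39 to 109). Summed over 16 choroid plexus genes, N_dCKO arrays 1, 2 and 4 had signals of 991, 1484 and 1806, while N_dCKO array 3 had 37954, near the 33835 to 38116 of WT. The highest signal of a single gene in this list was 37234 over the 16 arrays, so the sum can rest largely on 1 gene. It does not show how near the other choroid plexus genes of N_dCKO array 3 were to WT. Calls and counts that differ without this array are given beside the results they touch. As a check of RNA quality, the 3' signal of Gapdh over its 5' signal was 0.797 to 0.834 in N_dCKO arrays and 0.752 to 0.786 in WT arrays.

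Signals below are the deposited MAS5 intensities on a linear scale, and fold changes are differences in log2(signal + 9) with their standard error (SE). A feature was tested if its mean log2 value was at or above the median over probe sets, a signal of 88.2. This left 11 of the 26 member probe sets, which measure 6 of the 9 genes: H2-K1 (3 of 4 probe sets), H2-D1 (3 of 9), B2m (2 of 2), Tap2 (1 of 1), Tapbp (1 of 2) and Cd74 (1 of 1). A probe set or gene was called changed at an adjusted p below 0.05 in limma over all 22503 probe sets or 11664 genes. In whole tissue, fewer cells of a type and less RNA per cell cannot be told apart.

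B2m, the light chain shared by all classical class I molecules, had its lowest mean signals in N_dCKO on both of its probe sets. On probe set 1449289_a_at the N_dCKO arrays read 2696, 2831, 2731 and 2766. The APLP2_KO arrays read 2879.6, 3012, 2869.6 and 3331, the APP_KO arrays 2648, 3543, 2902 and 3264, and the WT arrays 3446, 3685, 2958 and 3100.5. Every N_dCKO array was thus below every WT array and every APLP2_KO array, but not below every APP_KO array. On 1452428_a_at the N_dCKO arrays read 2559, 2847, 2225 and 2234, against 2916, 3272, 3032 and 3047 in WT, again without overlap. The APLP2_KO arrays, at 2304, 2581, 2921 and 3026, and the APP_KO arrays, at 3037, 2984, 3222 and 2697, both overlapped the N_dCKO arrays.

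The difference of B2m between N_dCKO and WT was -0.25 ± 0.08 (log2, SE) on the first probe set and -0.32 ± 0.09 on the second. Neither was called, with limma adjusted p of 0.203 and 0.115 over all probe sets. For both, permuting the 4 and 4 arrays exactly gave a two-sided p = 0.0286, the smallest such a permutation test can give. As a gene, with its brightest probe set, B2m differed by -0.25 with a 95% interval of -0.42 to -0.08 and a limma adjusted p of 0.166. When the values of its probe sets were averaged instead, the difference was -0.29 ± 0.07 and passed, with a limma adjusted p of 0.0461. Over all the alternatives tried, the limma adjusted p of B2m as a gene ranged up to 0.411 and the difference stayed negative, between -0.34 and -0.20.

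**Figure D1:**
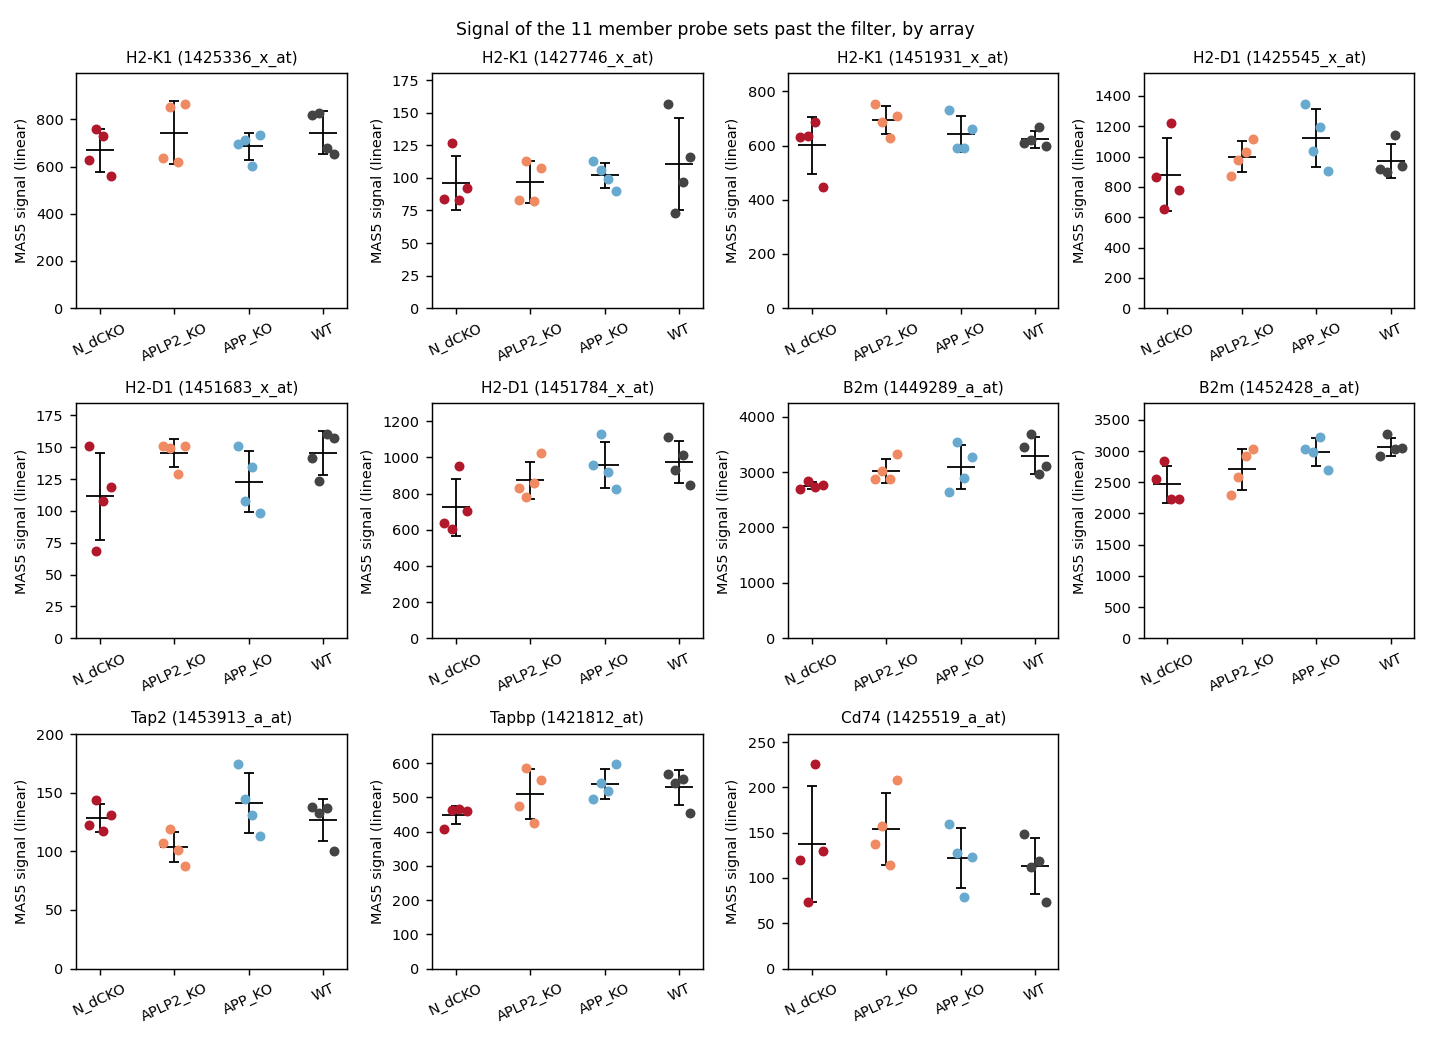
MAS5 signal (linear axis from 0) of the 11 member probe sets that passed the filter, 1 panel each, with 1 point per array and groups in the order N_dCKO, APLP2_KO, APP_KO and WT. Long bars are means and short bars SD (n = 4); the N_dCKO points of both B2m probe sets lie below all WT points, while in H2-D1 1451784_x_at N_dCKO array 3, at 954, lies among the WT points.

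H2-D1, a classical heavy chain, gave different sizes on its 3 tested probe sets. Those whose names end in _x_at, as all tested H2-K1 and H2-D1 probe sets do, hold probes that can also bind related transcripts, so how much of a signal came from another class I gene was not tested. On 1451784_x_at the N_dCKO arrays read 636, 603, 954 and 704, the APLP2_KO arrays 829, 782, 857 and 1022, the APP_KO arrays 959, 1129, 917 and 823, and the WT arrays 1115, 929, 1011 and 845. All N_dCKO arrays except array 3 were below all WT arrays. The difference from WT was -0.44 ± 0.13, with a limma adjusted p of 0.142.

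Without N_dCKO array 3, the array with summed choroid plexus signal near that of WT, the same H2-D1 probe set differed from WT by -0.58 ± 0.11. It was called, with a limma adjusted p of 0.0214. It was then also called against APP_KO, at -0.55 with a limma adjusted p of 0.0396. Over the alternatives tried, its limma adjusted p against WT ranged from 0.0214 to 0.351. The brightest H2-D1 probe set, 1425545_x_at, read 865, 655, 1221 and 781 in N_dCKO, 874, 978, 1028 and 1117 in APLP2_KO, 1347, 1036, 1197 and 904 in APP_KO, and 918, 896, 1139 and 938 in WT. Here the N_dCKO and WT arrays overlapped, with a difference of -0.17 ± 0.15 and a 95% interval of -0.48 to 0.14 in the fit of genes. On the third, 1451683_x_at, N_dCKO averaged 112 ± 34.2 and WT 145 ± 17.0 (SD, n = 4 each), a difference of -0.40 ± 0.19 with a limma adjusted p of 0.447.

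H2-K1, the other classical heavy chain, differed less. Its brightest probe set, 1425336_x_at, read 626, 758, 729 and 562 in N_dCKO, 638, 851, 621 and 866 in APLP2_KO, 698, 711, 603 and 733 in APP_KO, and 817, 825, 679 and 651 in WT. The groups overlapped, and N_dCKO differed from WT by -0.15, with a 95% interval of -0.41 to 0.10. The other tested probe sets of H2-K1 differed by -0.07 (1451931_x_at) and -0.15 (1427746_x_at). Neither H2-K1 nor H2-D1 was called in any comparison of genes.

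Tapbp, which bridges class I molecules to the transporter, read 409, 462, 465 and 459 in N_dCKO on 1421812_at. The APLP2_KO arrays read 474, 586, 426 and 550.0, the APP_KO arrays 495, 542, 519 and 597, and the WT arrays 568, 543, 553 and 454. The N_dCKO arrays were all below the APP_KO arrays, and 1 WT array fell within the N_dCKO range. In the fit of genes the difference was -0.23 ± 0.10 against WT (limma adjusted p = 0.374) and -0.26 ± 0.10 against APP_KO (limma adjusted p = 0.540). Neither passed there or in the fit of probe sets (limma adjusted p of 0.407 and 0.573).

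Tap2, a transporter subunit, read 122, 144, 117 and 131 in N_dCKO, 107, 119, 101 and 87.7 in APLP2_KO, 174, 145, 131 and 113 in APP_KO, and 137, 133, 137 and 100.4 in WT. Its lowest mean was in APLP2_KO, which differed from WT by -0.27 ± 0.16, while N_dCKO differed from WT by 0.02 ± 0.16. Both intervals include 0. Cd74, the class II invariant chain, read 120, 73.2, 226 and 130 in N_dCKO, 137, 157, 114 and 208 in APLP2_KO, 160, 128, 79.0 and 123 in APP_KO, and 149, 112, 119 and 73.9 in WT. It varied more between arrays of a group than the others. In the fit of genes its difference from WT was 0.19 ± 0.27 in N_dCKO and 0.42 ± 0.27 in APLP2_KO, neither passing limma's test (adjusted p of 0.851 and 0.803).

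**Figure D2:**
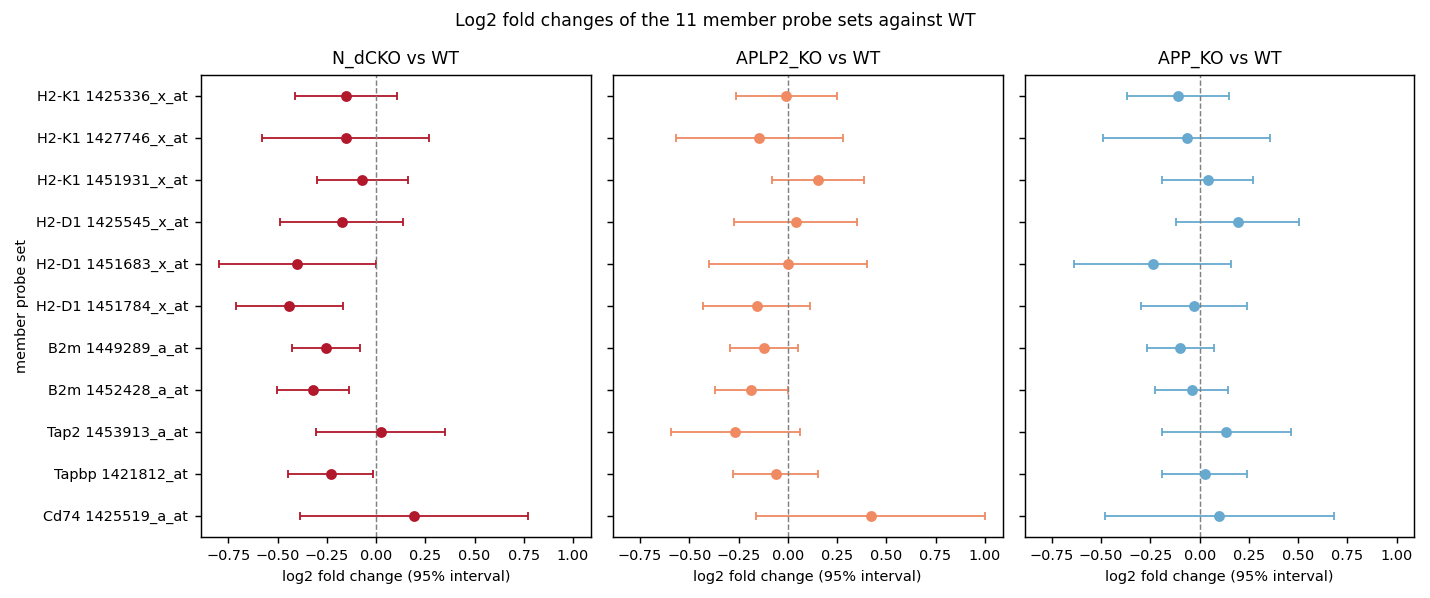
Log2 fold change against WT of the 11 tested member probe sets in N_dCKO, APLP2_KO and APP_KO, with 95% intervals as bars and 0 as a dashed line. In N_dCKO 9 of the 11 points are below 0 and 4 intervals exclude 0 before adjustment, both of B2m among them, whereas no APP_KO interval does.

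The 15 member probe sets below the filter include every probe set of Tap1, Psmb8 and Psmb9, so these 3 genes were fitted only without the filter. Their signals ranged from 0.532 to 134 over the 16 arrays, and their medians from 2.66 to 85.0. The brightest was Tap1 1416016_at, with a median of 85.0 and a range of 46.8 to 117. Psmb9 had a median of 59.7 and Psmb8 1422962_a_at one of 57.8. In a fit with no filter, none of the 15 was called by limma in any comparison, and the number with an unadjusted p below 0.05 was 0 or 1. Between N_dCKO and WT, that fit gave 0.11 ± 0.25 for Tap1 1416016_at and 0.07 ± 0.27 for Psmb9. Psmb8 1422962_a_at differed there by -0.60 ± 0.37. The lowest of these p-values was for H2-D1 1426324_at in the comparison of arrays without and with APLP2, at -0.94 ± 0.32 (unadjusted p = 0.00907, limma adjusted p = 0.395). A further 3 probe sets map to a member together with another gene, and none of them passed the filter.

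**Figure D3:**
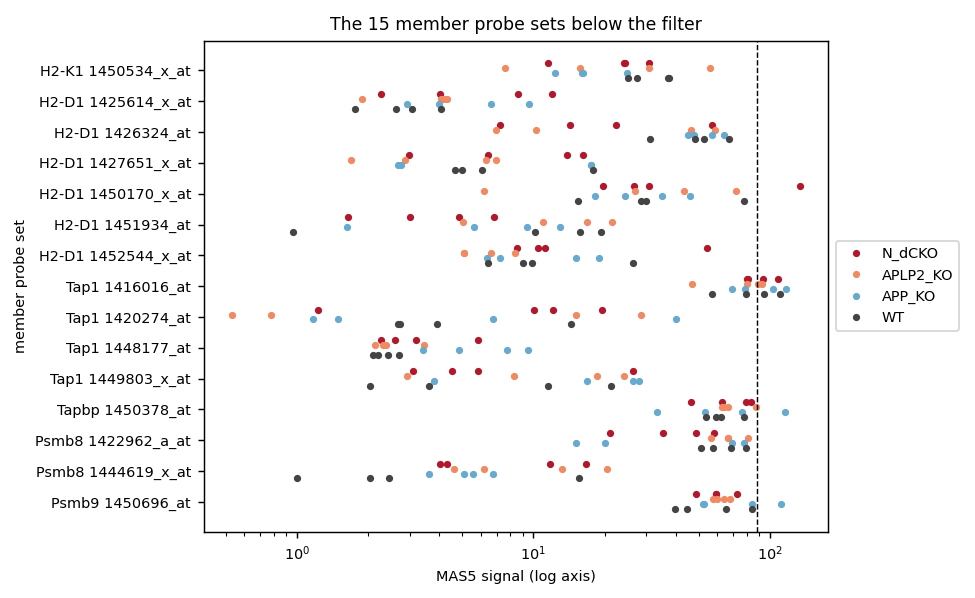
Signals of the 15 member probe sets below the filter on a log axis, 1 point per array coloured by group, with the filter's signal of 88.2 as a dashed line. Groups are interleaved in most rows, and Tap1 1416016_at lies nearest to the line.

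Between N_dCKO and WT, the comparison in which both genes were lost, none of the 6 tested member genes and none of the 11 probe sets was called by limma. Over all features, 0.943% of genes and 0.667% of probe sets were called. An unadjusted p below 0.05 was reached by 2 of 6 member genes, B2m and Tapbp, both lower in N_dCKO, against 12% of all genes. It was reached by 4 of 11 probe sets (both of B2m, H2-D1 1451784_x_at and Tapbp), all lower, against 11.2%. The 2 probe sets whose groups did not overlap were those of B2m, against 3.66% of all probe sets that were lower without overlap. An ordinary test without moderated variances called none and gave the same counts of 2 genes and 4 probe sets at an unadjusted p below 0.05. The counts without N_dCKO array 3 were 3 genes and 5 probe sets. The gene count fell to 1 without N_dCKO array 1 or without WT array 1, 2 or 3. The differences were negative in 4 of 6 genes and 9 of 11 probe sets, with medians of -0.16 and -0.17, beside medians over all features of -0.0041 and 0.0066.

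Against APP_KO, which also lacks APP, N_dCKO had its smallest member p-values at H2-D1 and B2m probe sets and at Tapbp. No member was called, against 0.352% of genes and 0.262% of probe sets. H2-D1 (-0.37 ± 0.15) and Tapbp (-0.26 ± 0.10) were the 2 of 6 genes at an unadjusted p below 0.05, against 7.71% of all genes, and 4 of 11 probe sets were, against 7.48%. The ordinary test gave 1 gene and 3 probe sets and called none. Tapbp was the 1 probe set without overlap between groups, against 1.87% lower without overlap over the array.

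Against APLP2_KO, N_dCKO had no member called, where 0.0257% of genes and 0.0267% of probe sets were. None of the 6 genes and 1 of the 11 probe sets, H2-D1 1451784_x_at at -0.28, had an unadjusted p below 0.05, against 8.44% and 7.5%. The ordinary test gave 0 for both. Leaving out N_dCKO array 3 gave 1 gene and 3 probe sets. The B2m probe set 1449289_a_at was the 1 without overlap, against 2.6% of probe sets that were lower without overlap.

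The question closest to the reported binding of APLP2 to class I is the loss of APLP2, asked with APP present and over all arrays. The arrays measure RNA, so binding and the amount of class I protein were not measured, and these values do not bear on them. APLP2_KO against WT had no member called, where 0.129% of genes and 0.147% of probe sets were. None of 6 genes had an unadjusted p below 0.05, against 7.44%, and 1 of 11 probe sets did, B2m 1452428_a_at at -0.19 ± 0.09, against 7.1%. The ordinary test gave 0 for both. B2m as a gene differed by -0.12, with a 95% interval of -0.29 to 0.05. H2-K1 differed by -0.01 (95% interval -0.26 to 0.25) and H2-D1 by 0.04 (-0.27 to 0.35).

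Over all arrays, 8 without APLP2 (N_dCKO and APLP2_KO) were set against 8 with it (APP_KO and WT). The arrays without APLP2 join N_dCKO, called a conditional knockout, with APLP2_KO, so their losses of APLP2 may differ in kind. No member was called, while 0.917% of genes and 0.711% of probe sets were. B2m (-0.14 ± 0.06) and Tapbp (-0.16 ± 0.07) were the 2 of 6 genes at an unadjusted p below 0.05, against 10.5%, and 4 of 11 probe sets were, against 9.87%. The ordinary test gave 1 gene and 3 probe sets, and leaving out N_dCKO array 3 gave 3 genes and 5 probe sets. The gene count was also 3 without N_dCKO array 2 or WT array 4. It fell to 0 without WT array 2, APP_KO array 2 or APLP2_KO array 3. It was 1 without N_dCKO array 1, APLP2_KO array 1, APP_KO array 4, or WT array 1 or 3. On B2m 1452428_a_at the difference was -0.23 ± 0.06 with a limma adjusted p of 0.115 and an exact permutation p of 0.0054. On H2-D1 1451784_x_at it was -0.29 ± 0.09 with a limma adjusted p of 0.239. Without N_dCKO array 3 the H2-D1 value was -0.35 and was called (limma adjusted p = 0.0353), and without N_dCKO array 2 B2m 1452428_a_at was -0.27 and was called (limma adjusted p = 0.0485).

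Loss of APP with APLP2 present gave B2m a difference of -0.10 (95% interval -0.27 to 0.07) and H2-D1 one of 0.19 (-0.11 to 0.50). APP_KO against WT had no member called, with 0.00857% of genes and 0.0133% of probe sets called, and no member gene or probe set had an unadjusted p below 0.05, against 5.18% and 4.9%. The ordinary test gave 0 for both. Over all arrays, with 8 lacking APP against 8 with it, no member was called either, with 0.0171% of genes and 0.0222% of probe sets called. The arrays lacking APP likewise join N_dCKO with APP_KO, so their losses of APP may differ in kind. None of 6 genes and 1 of 11 probe sets, H2-D1 1451683_x_at at -0.32 ± 0.14, had an unadjusted p below 0.05, against 9.16% and 8.27%. The ordinary test gave 1 gene and 2 probe sets, and leaving out N_dCKO array 3 gave 0 genes and 2 probe sets. Leaving out APP_KO array 4 gave 2 genes.

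Whether N_dCKO differed from the sum of the single knockouts was tested by the interaction. The interaction is the difference of N_dCKO from WT minus those of APLP2_KO and APP_KO from WT. It called no member and 0% of all genes and 0% of all probe sets. No member had an unadjusted p below 0.05, against 4.15% of genes and 4.14% of probe sets, and the ordinary test gave 0 as well. Without N_dCKO array 3, 1 of 6 member genes and 3 of 11 probe sets had an unadjusted p below 0.05, and 11 genes and 11 probe sets of the whole array were called, none of them a member. The interaction of B2m was -0.03 ± 0.11 and that of H2-D1 -0.41 ± 0.21, both in log2 units. N_dCKO, APLP2_KO and APP_KO are all compared with the same 4 WT arrays. The series title calls N_dCKO a neuronal conditional knockout, while the single knockouts are labelled APLP2-/- and APP-/-. Whether the deletions covered the same cells was not tested, so the interaction does not speak of additivity alone.

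Other genes of the pathway were read from lists by role, and in N_dCKO against WT no gene of these lists other than App and Aplp2 was called outside the interferon response. The list of class I receptors and partners had 3 of 9 genes in the fit, the targeted App and Aplp2 (both called lower) and their relative Aplp1 (-0.04 ± 0.06), and is left aside here. Of 4 further class I genes in the fit, 4 were negative (median -0.16) and none was called by limma. The largest difference was that of Hfe, a class I-like regulator of iron uptake, at -0.55 ± 0.16 (limma adjusted p = 0.114). Hfe read 98.7, 133, 186 and 118 in N_dCKO and 215, 199, 184 and 186 in WT, with N_dCKO array 3 level with WT. Without that array 1 of the 4 genes was called lower. H2-M3, a nonclassical class I gene, Fcgrt, the neonatal Fc receptor, and Cd1d1, which presents lipids, differed by -0.15, -0.08 and -0.17.

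Among 9 genes of peptide trimming and loading, 6 were negative (median -0.03) and none was called. Pdia3, the disulfide isomerase of the loading complex, read 4094, 3978, 4105 and 4968 in N_dCKO and 5019, 5476, 5073 and 4865 in WT. Its difference was -0.26 ± 0.07 (limma adjusted p = 0.0702), with 1 N_dCKO array above the lowest WT array. Tapbpl, a relative of tapasin, differed by -0.26 ± 0.18. Of 5 immunoproteasome and activator genes, 4 were negative and none was called. Psmb10, the third inducible catalytic subunit and the one that passed the filter, read 933, 881, 834 and 893 in N_dCKO and 1067, 976, 996 and 1006 in WT. Its groups did not overlap (-0.19 ± 0.07, limma adjusted p = 0.271), as in 3.66% of all probe sets that were lower without overlap. Of 14 standard core subunits, 12 were negative, with a median of -0.04 and none called. Psmb7, a catalytic subunit that Psmb10 replaces, had the largest difference of the 4 with the smallest p (-0.29 ± 0.09, limma adjusted p = 0.142).

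All 6 tested genes of the class II pathway were negative (median -0.16), and none was called, though 1 was called lower without N_dCKO array 3. Ctss, a protease that trims the invariant chain and is also a microglial marker, read 1697, 2125, 2198 and 1661 in N_dCKO, 1603, 2183, 2138 and 2026 in APLP2_KO, 2789, 2657, 2042 and 2174 in APP_KO, and 2763, 2698, 2504 and 2445 in WT. Both groups lacking APLP2 lay below WT without overlap. In N_dCKO against WT 3.66% of all probe sets were lower without overlap, and this share was not counted for APLP2_KO. Ctss differed between N_dCKO and WT by -0.45 ± 0.11 (limma adjusted p = 0.0628). Over all arrays it was lower without APLP2 and called, at -0.36 ± 0.08 (limma adjusted p = 0.0290). Of 13 transcription factors that act on MHC genes, 8 were negative and none was called. Rfx5, which binds class I and class II promoters, had the smallest p of that list, at 0.15 ± 0.08. Of 7 interferon receptor and kinase genes none was called, although Ifnar1 differed by 0.38 ± 0.10 (limma adjusted p = 0.0724) and Ifnar2 by -0.32 ± 0.11 (limma adjusted p = 0.205). Both receptor genes lie on chromosome 16, which also carries App. Ifnar1 differed from WT by 0.31 ± 0.10 in APLP2_KO and by 0.15 ± 0.10 in APP_KO. Ifnar2 differed from WT by -0.05 ± 0.11 in APP_KO, and none of these was called. A link between the receptor genes and the App locus was not tested.

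Among these lists, interferon-induced genes had the lowest median. In N_dCKO against WT 15 of 16 were negative, with a median of -0.38, beside 51.3% negative among all genes. Of the 16, 8 had an unadjusted p below 0.05, against 12% of all genes. The 1 gene called lower was Ifi27, a mitochondrial interferon-induced protein, at -0.68 ± 0.11 (limma adjusted p = 0.00229). Its arrays read 664, 639, 755 and 917 in N_dCKO, 971, 1007, 1003 and 1060.0 in APLP2_KO, 1009, 1136, 1081 and 976 in APP_KO, and 1092, 1408, 1264 and 1017 in WT. Every N_dCKO array was below every array of the other 3 groups. Bst2 (tetherin, -0.62 ± 0.20), Ifitm3 (a block to virus entry, -0.39 ± 0.12) and Ifi35 (-0.34 ± 0.14) were next by p and did not pass. Without N_dCKO array 3 the median was -0.43, with 15 of 16 negative and 1 called.

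In APLP2_KO against WT 15 of the 16 were also negative, beside 53.3% of all genes, with a median of -0.27 and none called by limma. An unadjusted p below 0.05 was reached by 2 of the 16, against 7.44% of all genes. In APP_KO against WT 9 of 16 were negative, beside 51.7% of all genes, with a median of -0.0036 and none called. These comparisons share the WT arrays. Against APP_KO, N_dCKO had 15 of 16 negative, beside 50.4% of all genes, with a median of -0.43. Ifi27 was called there at -0.51 ± 0.11 (limma adjusted p = 0.0382). None of the 16 was called against APP_KO without N_dCKO array 3. Over all arrays, loss of APLP2 gave 15 of 16 negative, beside 51.8% of all genes, with a median of -0.32. An unadjusted p below 0.05 was reached by 10 of the 16, against 10.5% of all genes. Ifi27 was called at -0.37 ± 0.07 (limma adjusted p = 0.0165).

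**Figure D4:**
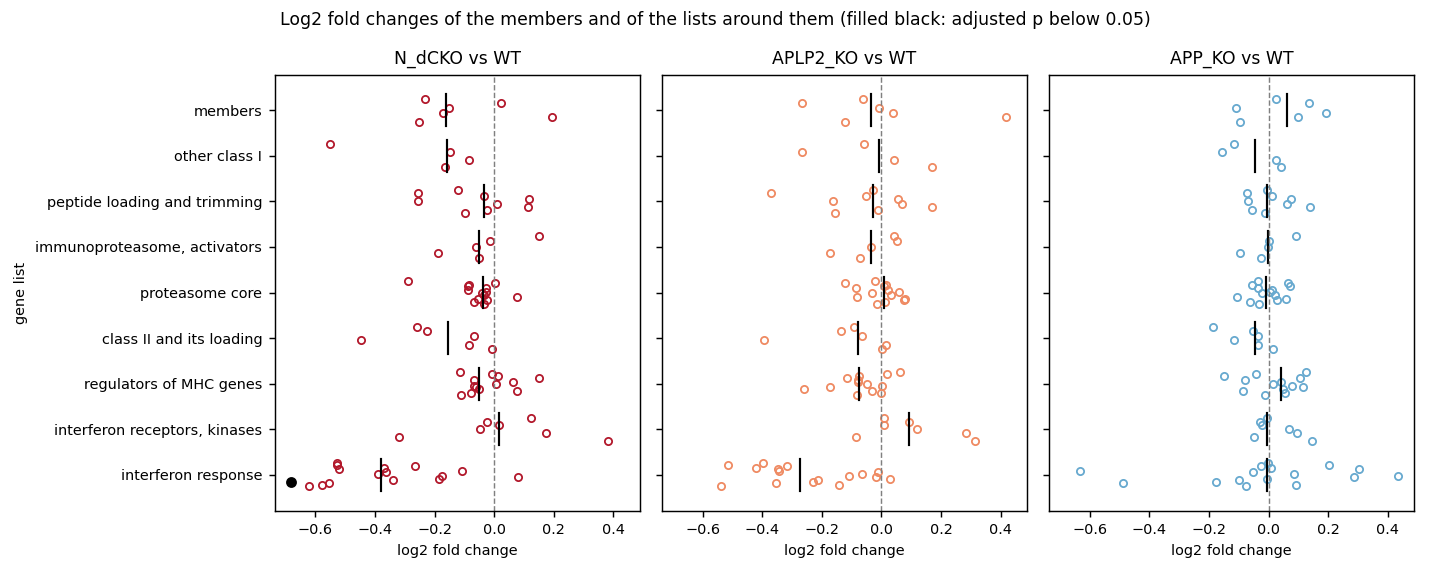
Log2 fold changes against WT of the 6 tested members and of the genes in each list, for N_dCKO, APLP2_KO and APP_KO, with 1 open point per gene, short vertical bars for list medians and a filled black point for a called gene. The interferon response lies at a median of -0.38 in N_dCKO and -0.27 in APLP2_KO, and Ifi27 in N_dCKO is the 1 filled point.

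Markers of microglia, the resident macrophages of the brain, had negative differences in the same comparison. All 14 tested markers were negative in N_dCKO against WT (median -0.36), and 5 were called lower by limma: C1qa, C1qb, C1qc, Fcrls and Tyrobp. C1qa, a complement subunit, differed by -0.46 ± 0.07. Summed over 15 markers, the signal ranged from 12879.5 to 13862 in N_dCKO, from 14320.5 to 15252 in APLP2_KO, from 14298 to 16008 in APP_KO and from 16456 to 17221 in WT, and no marker was at 0. Summed choroid plexus signal ranged from 991 to 37954 in N_dCKO and from 33835 to 38116 in WT, with 14 of 14 tested markers called lower. The 10 tested endothelial markers had a median of -0.04 and none was called. Of perivascular macrophage markers 4 of 6 were negative (median -0.08), and 1 of 6 dendritic and B cell markers on the array was in the fit. Oligodendrocyte markers were negative in 9 of 9 (median -0.52, 1 called lower) and ependymal markers in 7 of 7 (median -0.43, none called, but 1 called lower and a median of -0.56 without N_dCKO array 3). Astrocyte markers were negative in 3 of 11 (median 0.13) and neuronal markers in 1 of 10 (median 0.05), with none called. Without N_dCKO array 3, 4 of 11 astrocyte markers were negative and 1 was called higher, 4 of 10 neuronal markers, 13 of 14 microglial markers and 3 of 6 perivascular macrophage markers were negative, and 5 microglial markers were called lower. Mural, leptomeningeal and hippocampal markers had medians of -0.03, -0.10 and 0.12 with none called. In APLP2_KO against WT 13 of 14 microglial markers were also negative (median -0.21), and in APP_KO against WT 14 of 14 (median -0.15). None was called there. Over all arrays 4 were called lower with loss of APLP2 and 0 with loss of APP, but the sizes were alike. The median was -0.17 with either loss, with 13 of 14 negative for APLP2 and 14 of 14 for APP. With each loss 7 of the 14 had an unadjusted p below 0.05, so the calls do not set the 2 losses apart. Oligodendrocyte markers were negative in 9 of 9 in APP_KO against WT (median -0.52) and in 6 of 9 in APLP2_KO against WT (median -0.05), with none called. An unadjusted p below 0.05 was reached by 7 and 1 of the 9, against 5.18% and 7.44% of all genes. Over all arrays, loss of APP gave 9 of 9 negative, 8 at an unadjusted p below 0.05 and 1 called lower (Mag, limma adjusted p = 0.0475). Loss of APLP2 gave 6 of 9 negative, 1 at an unadjusted p below 0.05 and 0 called. The part of these cell types, and of the Gapdh ratio, in the members' values was not tested.

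The genes whose log2 signal followed each tested member most closely over the 16 arrays differed from member to member. For H2-K1 they were Ptprc (the leukocyte phosphatase CD45, Pearson r = 0.87), Tmem63a (0.77) and Rfwd3 (0.76). For H2-D1 they were Sgpl1 (0.82), Rhoj (0.77) and Synj1 (0.75), and for B2m Pcolce (0.88), Ccp110 (0.88) and Plaat3 (0.85). Tap2 was followed by Bmyc (0.84), Ndufv1 (0.83) and Thap7 (0.82), Tapbp by Lair1 (0.83), Atf6 (0.81) and Lamp2 (0.81), and Cd74 by Mybbp1a (0.84), Dapk1 (0.78) and Dok3 (0.78). Among the members, B2m and Tapbp had r = 0.65, H2-K1 and Tapbp 0.65, and B2m and H2-K1 0.59, while B2m and H2-D1 had -0.09. All these values share the same 16 arrays and their differences between genotypes, and describe these arrays only. For deviations from group means, r was 0.50 for B2m and Tapbp and 0.71 for H2-K1 and Tapbp. It was 0.56 for B2m and H2-K1 and -0.41 for B2m and H2-D1. The genes named for each member were picked as the highest among the 11664 in the fit, and how high r would be from picking alone was not tested.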

How the data were processed

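RNA of 16 hippocampus samples was hybridised to Affymetrix mouse expression arrays, 4 per genotype, after Trizol extraction and biotin labelling, per the labels' protocols. The deposited values are intensity values that the authors made with MAS5, per the submitters' processing notes. No version of it is stated in the sources used here. The 2% trimmed mean of every array was 500, and the scaling by the authors was left as it was. Of 45101 probe sets, the annotation paired 34945 with 1 gene symbol and 932 with several, and did not list 9211. Controls made up 64 probe sets.

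Values were taken as log2(signal + 9), a fold change that understates dim genes, and fitted with limma 3.58.1 in R 4.3.3 (1 mean per group, 12 residual and 19.4 total degrees of freedom, variance trend, Benjamini-Hochberg over all features tested, adjusted p below 0.05). Files were loaded by data.table (1.17.8). A gene was its brightest probe set above the filter, and probe sets were also fitted singly. Exact permutation tests (4 against 4, smallest p 0.0286; 8 against 8, smallest p 0.000155) and all other values used Python 3.11.15, pandas 2.3.3, numpy 2.4.6 and scipy 1.17.1. The number of arrays limits the precision, with a median SE of 0.098 between groups of 4. The fit was tested on simulated data with known changes.

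The members and lists were chosen with earlier results of these data known. Named are all members, up to 4 genes per list and comparison by smallest p, called genes of the lists, and the 3 genes most correlated with each member. Marker lists were read the same way. The fits were repeated with median centring, quantile normalization, the mean over probe sets, other filters and pseudocounts, no variance trend, array weights, the replicate block, the compared groups alone, an ordinary test and leaving out each array. Settings for the gene lists were added after seeing the data. Promoter sequences are from RefSeq, build GRCm38.p6, and 7 of the 9 members were read, without Tap2 and Cd74.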

Additional observations from a re-analysis of the deposited data

Results flagged for a closer look

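Within groups, 3 of 44 sets of 4 values of the tested member probe sets had 1 array far from the other 3, by the gap to its nearest neighbour over the range of the 4 (Dixon's test at 95%). Chance flags about 1 in 20 such groups, or 2.2 of 44. Tapbp 1421812_at in N_dCKO had a gap ratio of 0.906, with array 1 at 409 and the others at 462, 465 and 459. H2-D1 1451683_x_at in APLP2_KO had a ratio of 0.934, with array 3 at 129 and the others at 151, 149.6 and 151. Tap2 1453913_a_at in WT had a ratio of 0.888, with array 4 at 100.4 and the others at 137, 133 and 137.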

How the results depend on the processing

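The count of member genes called was 0 with every alternative, except that the mean over probe sets called 1 (B2m) in N_dCKO against WT. Of 48 values (6 genes, 8 comparisons), 32 kept their sign under all alternatives and 16 did not. Of 1310 such refits, 50 changed sign and 1 was called. Median centring called 1 member probe set (H2-D1 1451784_x_at, -0.53, limma adjusted p = 0.0372) in N_dCKO against WT and shifted the median of all genes there by -0.09. Leaving out 1 array gave 0 to 1 member probe sets in N_dCKO against WT, in N_dCKO against APP_KO and in the loss of APLP2, and 0 in other comparisons. The 1 came without N_dCKO array 3, and in the loss of APLP2 also without N_dCKO array 2. The cause was not tested. For lists in N_dCKO against WT, 0 called lower became 1 in class II genes and in ependymal markers with median centring, without N_dCKO array 3 and with the replicate block, in further class I genes without N_dCKO array 3, and in mural and leptomeningeal markers with the replicate block. Called lower among oligodendrocyte markers, 1 became 5 with median centring and 6 with the replicate block, and among microglial markers 5 became 6 with either. Among astrocyte markers, 0 called higher became 1 without N_dCKO array 3, and the 1 interferon-induced gene called against APP_KO became 0. These list settings were chosen after seeing the data.

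Genes called in N_dCKO against WT over the whole array, 110 in the reported fit, numbered 33 with the ordinary test, 60 above the 75th percentile, 73 without the variance trend and 170 with array weights. Without single arrays they numbered 45 to 154. Over all alternatives, genes called ranged from 3 to 30 in APLP2_KO against WT (15 reported), 1 to 16 in APP_KO against WT (1), 2 to 59 in N_dCKO against APP_KO (41), 1 to 35 in N_dCKO against APLP2_KO (3), 36 to 137 in the loss of APLP2 (107), 1 to 94 in the loss of APP (2) and 0 to 11 in the interaction (0). Probe sets called in N_dCKO against WT ranged from 32 to 263 (150). With the replicate number as a block 198 genes were called, and 0 members were. Deviations of same-numbered arrays correlated at -0.02 to 0.30 (median 0.05, 24 pairs), and the other 72 pairs at -0.20 to 0.17. All 16 arrays correlated best on average with their own number, a hint from the data and not from the design, so the numbers were not taken as pairs. Dim signals limit Tap1, Psmb8 and Psmb9, which were below the filter and were fitted only without it.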
